A study of Mus musculus with 9 samples.

Results

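The genes described here are 10 genes best known from T lymphocytes and natural killer (NK) cells, measured in sorted blood stem and progenitor cells. They were given by name: Gzmb, Gzma, Cd28, Bcl11b, Nkg7, Tcf7, Il2rb, Cd2, Lat and Lck. Every probe set that the platform annotation assigns to 1 of these symbols alone was used, which gave 13 probe sets for 8 of the 10 genes, out of 18193 genes named on the array. No probe set was named for Tcf7 or Lck, which are not analysed here. The genes were chosen with their intensities in the control, day 7 and day 14 arrays known, and Gzmb, Cd28 and Bcl11b were set against the others for that reason. Their values are therefore given as a description, without a test.

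RNA of CD45.1+ LKS+ cells sorted from bone marrow was hybridised to 9 Affymetrix whole-genome mouse arrays. LKS+ cells lack lineage markers and carry Kit and Sca-1, and CD45.1 is a form of a blood cell surface antigen that marks cells of one origin. Cells came from control mice, from leukemic mice at day 7 and from leukemic mice at day 14, with 3 arrays per group, all from C57BL/6 mice aged 8 weeks. The series asks how normal stem and progenitor cells differ across stages of acute myeloid leukemia. The leukemia model, the origin of the CD45.1+ cells and any pooling of animals are not given in the sources used here. No time is given for the controls, and an effect of leukemia cannot be told apart from one of time. The labels call the replicates biological without saying whether each is a separate animal, so p-values measure the spread between these samples.

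T and NK cells both descend from early lymphoid progenitors. T cells detect antigen through a receptor complex whose signal passes from the kinase Lck to the adaptor Lat, and Cd28 supplies the second, costimulatory signal. T cell identity is set up in the thymus by the transcription factors Tcf7 and Bcl11b. Cytotoxic T cells and NK cells kill through granules that hold the pore former perforin and serine proteases called granzymes, and Nkg7 is a membrane protein of those granules. Progenitors can read lymphoid genes at a low level before a lineage is chosen.

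The RefSeq promoter table (build GRCm38.p6) matched 7 of the 10 genes. The stretches below are the 250 bases before the transcription start, read 5′ to 3′ on the strand of the gene. They are shown for the 2 granzymes, which behaved differently, for Bcl11b, which was higher in the leukemic groups, and for Nkg7, which was lower at day 14. Capitals mark matches, on either strand, to letters bound by factors of T cells and of signal response: CTTTGA (TCF/LEF), TGTGGT (RUNX), AGATAA (of GATA factors), TGAGTCA with its reverse complement TGACTCA (AP-1), GGAAAA (NFAT), AAAGGTCA (NR4A), TGGGAA (RBPJ) and GTGGGC (EGR).
Gzmb, chr14:56262335-56262584, minus strand: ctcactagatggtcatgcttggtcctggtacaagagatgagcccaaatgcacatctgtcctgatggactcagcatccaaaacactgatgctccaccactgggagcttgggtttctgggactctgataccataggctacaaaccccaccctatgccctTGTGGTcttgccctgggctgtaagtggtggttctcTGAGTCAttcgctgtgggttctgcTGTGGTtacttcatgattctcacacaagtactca
Gzma, chr13:113100982-113101231, minus strand: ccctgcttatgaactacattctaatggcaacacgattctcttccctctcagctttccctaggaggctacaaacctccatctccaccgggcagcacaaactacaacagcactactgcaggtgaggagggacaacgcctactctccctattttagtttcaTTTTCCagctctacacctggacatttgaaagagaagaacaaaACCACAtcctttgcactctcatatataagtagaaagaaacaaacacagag
Bcl11b, chr12:108003415-108003664, minus strand: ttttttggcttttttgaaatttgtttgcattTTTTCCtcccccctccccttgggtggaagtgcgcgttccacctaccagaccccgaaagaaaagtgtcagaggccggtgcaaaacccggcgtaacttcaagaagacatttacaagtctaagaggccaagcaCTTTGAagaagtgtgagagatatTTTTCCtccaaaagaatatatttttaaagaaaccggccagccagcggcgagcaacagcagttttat
Nkg7, chr7:43436888-43437137, plus strand: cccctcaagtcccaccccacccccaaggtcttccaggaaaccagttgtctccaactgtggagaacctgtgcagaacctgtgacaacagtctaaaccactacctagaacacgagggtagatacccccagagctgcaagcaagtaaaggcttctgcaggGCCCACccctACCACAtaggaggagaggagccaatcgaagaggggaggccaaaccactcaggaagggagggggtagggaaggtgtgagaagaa
The Gzmb stretch held TGTGGT at 93 and at 34 bases before the start and TGAGTCA at 58 bases before it. TGTGGT also stood in the Gzma and Nkg7 stretches, and 14% of all 32851 promoter stretches of this length hold it, while TGAGTCA is held by 4.46%. The Bcl11b stretch held CTTTGA, found in 13.8% of stretches, at 89 bases before the start, and GGAAAA in 2 places, a motif of 20.4% of stretches. The Gzma stretch held GGAAAA once, and the Nkg7 stretch held GTGGGC once, which 18.6% of stretches hold. None of these 4 stretches held AGATAA, AAAGGTCA or TGGGAA, which stand in 9.99%, 1.34% and 21.6% of stretches. A match is a run of letters and not a bound site.

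The sorted cells carried the transcripts of their gate. All 8 measured stem and progenitor markers, among them Kit, Flt3, Cd34 and Hlf, lay above the 40th percentile of the array in all 9 arrays, the level used here as the border of usable signal (an intensity of 14.1 to 15.2). Of 8 markers of mature T cells, 4 lay above it in all 9 arrays (Cd3e, Cd4, Cd8a and Cd6) and 2, Cd3d (8.35 to 12.8) and Cd3g (2.88 to 3.99) of the T cell receptor complex, lay below it in all 9. The intensities of the 8 summed to 133 to 146 in control, 143 to 162 at day 7 and 160 to 178 at day 14. Of the 5 that were tested, 3 rose at day 14 over control (Cd3e, Cd8a and Trat1) and none fell. Trat1 entered the test only through the day 14 arrays, where it is high, so its call carries no weight. Of 5 measured NK cell markers, Ncr1 (6.66 to 12.2) and Eomes (11.7 to 13.2) lay below that level in all 9 arrays, and Klrd1 and Prf1 above it. The NK sum was 87.5 to 127 in control, 95.4 to 114 at day 7 and 172 to 205 at day 14, and Klrd1 supplied 107 to 132 of the day 14 sum. Of the 2 NK markers tested, Klrd1 rose at day 14 over control and Prf1 did not pass. Markers of other blood cells moved as well. The 4 megakaryocyte markers summed to 460 to 522 in control, 580.4 to 601 at day 7 and 1365 to 1632 at day 14, where all 4 rose. Of 8 myeloid markers, 4 rose and 2 fell at day 14, and their sum was 6607 to 8094 in control, 7347 to 8834 at day 7 and 9011 to 11030 at day 14. The plasma cell gene Jchain measured 5.36 to 21.4 in control, 89.1 to 103 at day 7 and 56.98 to 89.1 at day 14. Of the same list, Sdc1 measured 88.0 to 130 in control, 106 to 113 at day 7 and 122 to 185 at day 14. Tnfrsf17 lay below the 40th percentile in all 9 arrays. The 4 B cell markers summed to 188 to 200 in control, 184 to 204 at day 7 and 146 to 157 at day 14. The 2 erythroid markers summed to 78.2 to 230 in control, 104 to 113 at day 7 and 86.0 to 102 at day 14. At day 14, 1 B cell marker rose and 1 fell, and neither erythroid marker passed. The part of mature T, NK, B, megakaryocyte, myeloid, erythroid or plasma cells in the values below was not tested. In bulk RNA, fewer cells of a type and less RNA per cell cannot be told apart.

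**Figure D1:**
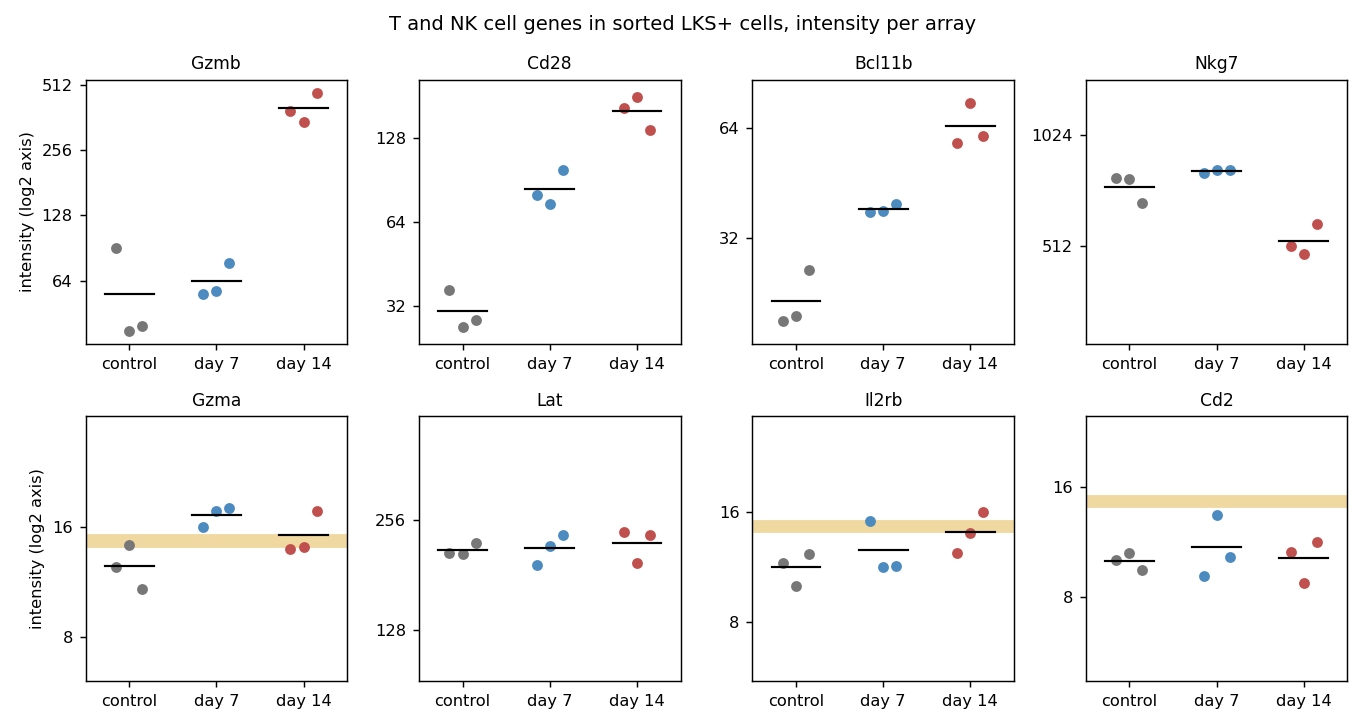
Intensity per array (log2 axis) of the probe set that stands for each of the 8 measured genes, by group. Points are arrays, lines are group means, and the tinted band is the 40th percentile of the arrays (14.1 to 15.2). Gzmb, Cd28 and Bcl11b were highest in the 3 day 14 arrays, Nkg7 was lowest there, and Cd2 lay below the band in every array.

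Among the granule genes, Gzmb stood far above its other values at day 14 alone. Gzmb encodes granzyme B, the protease that cuts death substrates in target cells. Its intensity was 90.1, 37.6 and 39.6 in the control arrays, 55.7, 57.3 and 77.6 in the day 7 arrays, and 388, 343 and 469 in the day 14 arrays. The lowest day 14 array lay above the highest array of either other group, while day 7 and control overlapped. The mean was 399.6 ± 63.9 at day 14 and 55.8 ± 29.8 in control (SD, n = 3 each), a 7.74-fold difference (log2 2.95, SE 0.29). At day 7 it was 63.5 ± 12.2, and the log2 difference from control was 0.29 (SE 0.29). Between day 14 and day 7 the difference was 6.31-fold, which ranked 1st among the increases of 12652 genes tested.

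Control replicate 1 set the width of the Gzmb control group, at 90.1. Without that array the log2 difference was 0.70 at day 7 and 3.36 at day 14. The same array was also high for the erythroid gene Klf1, at 155, against 36.1 and 44.8 in the other controls, and for Epor, at 74.5, against 42.1 and 45.1. Whether these departures share a source was not tested.

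The other 2 granzyme genes that passed the filter on dim probe sets, Gzma and Gzmm, differed less from control. Gzma, granzyme A, a protease that in cells of the cytotoxic lineages is stored beside granzyme B, measured 12.4, 14.3 and 10.8 in control, 15.9, 17.6 and 17.9 at day 7, and 13.9, 14.0 and 17.7 at day 14. It was above the 40th percentile in 1 control array, in 3 at day 7 and in 1 at day 14, so its values sit at the edge of signal. The log2 difference from control was 0.47 (SE 0.12) at day 7 and 0.28 (SE 0.12) at day 14. Day 7 did not overlap control, and day 14 did. Gzma passed the filter only through the day 7 arrays, where it is high, so that separation carries no weight. Gzmm, which encodes granzyme M, averaged 29.0 in control, 30.7 at day 7 and 34.3 at day 14, and did not pass at day 14 (log2 change 0.25, SE 0.10, limma adjusted p 0.059). Prf1, which encodes perforin, averaged 31.3 in control, 32.5 at day 7 and 31.9 at day 14 (day 14 log2 change 0.03, adjusted p 0.78).

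Gzmb lies on chromosome 14 in a cluster of granzyme genes. The 4 protein-coding genes before it in the RefSeq gene order are Gzmg, Gzmn, Gzmf and Gzmc, and all 4 were too dim to be tested. Gzmc, the adjacent granzyme C gene, measured 5.58, 4.47 and 5.58 in control, 4.66, 4.81 and 4.13 at day 7, and 6.76, 8.77 and 12.3 at day 14. The day 14 arrays were the highest for Gzmc, yet all 9 values lay below the 40th percentile. Gzmf, next in order, lay between 3.36 and 3.87 in all 9 arrays. On the other side of Gzmb, the nearest genes, Atp12a and Rnf17, were too dim to be tested. Beyond them, Cenpj fell at day 14 (log2 change -0.78, SE 0.10, adjusted p 0.00020) and Parp4 did not pass (0.08, adjusted p 0.40).

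Nkg7 went the other way from Gzmb at day 14. It measured 781, 776 and 669 in control, 809, 824 and 824 at day 7, and 511, 485 and 585 at day 14. Every day 14 array lay below every array of the other groups. The mean was 527 ± 51.6 at day 14 and 742 ± 63.2 in control (SD, n = 3 each), a log2 difference of -0.49 (SE 0.09), and from day 7 it was -0.64 (SE 0.09). Day 7 lay above control by 0.15 (SE 0.09) on the log2 scale without overlap, though the highest control array, at 781, was close to the lowest day 7 array, at 809.

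Bcl11b was higher at day 7 and higher again at day 14. This zinc finger protein shuts off stem, myeloid and NK programmes when thymocytes commit to the T lineage. The probe set that stands for it measured 18.9, 19.6 and 26.2 in control, 37.7, 38.0 and 39.6 at day 7, and 58.3, 74.96 and 60.9 at day 14. None of the 3 groups overlapped. The difference from control was 1.80-fold at day 7 (log2 0.85, SE 0.13) and 3.01-fold at day 14 (log2 1.59, SE 0.13).

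All 4 Bcl11b probe sets went the same way by different amounts. At day 14 the log2 difference from control was 1.59, 0.80, 1.27 and 0.90, and no day 14 array overlapped control in any of them. At day 7 it was 0.85, 0.39, 0.74 and 0.38. The probe set with 0.38 was the exception in overlap: it measured 26.8, 25.9 and 19.9 at day 7, against 17.9, 17.5 and 20.3 in control.

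Of the surface receptors, Cd28 showed the clearest step at each stage. Cd28 is the costimulatory receptor that binds Cd80 and Cd86 on antigen-presenting cells. Its brighter probe set measured 36.7, 26.9 and 28.6 in control, 80.1, 74.0 and 97.8 at day 7, and 163, 179 and 136 at day 14. The groups were separate at every step. The difference from control was 2.74-fold at day 7 (log2 1.45, SE 0.14) and 5.203-fold at day 14 (log2 2.38, SE 0.14), and day 14 was 1.90-fold above day 7.

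The second Cd28 probe set gave 31.2, 19.9 and 28.3 in control, 62.4, 50.8 and 69.9 at day 7, and 107, 129 and 105 at day 14. Its log2 difference from control was 1.22 (SE 0.20) at day 7 and 2.12 (SE 0.20) at day 14, again without overlap. Among 12652 genes ranked by increase over control, Cd28 stood 8th at day 7 and 11th at day 14, Bcl11b 77th and 61st, and Gzmb 634th and 5th.

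The remaining surface receptors were near or under the border of signal. Il2rb, a chain of the receptors for IL-2 and IL-15 that NK cells depend on, measured 11.6, 10.1 and 12.3 in control, 15.2, 11.4 and 11.4 at day 7, and 12.4, 14.0 and 16.0 at day 14. Only 1 day 7 array and 1 day 14 array passed the 40th percentile. Its other probe set lay between 10.1 and 15.5 and had a log2 difference from control of -0.06 (SE 0.15) at day 14, against 0.32 (SE 0.15) for the first. Cd2, an adhesion receptor of T and NK cells that binds Cd48 in mice, lay between 8.76 and 13.4 in all 9 arrays, below that level throughout. Neither gene passed the filter on dim probe sets.

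Lat, the adaptor that links the T cell receptor kinases to calcium and Ras signalling, was well above that border and nearly level. It measured 208, 207 and 222 in control, 193, 217 and 233 at day 7, and 237, 195 and 233 at day 14. The groups overlapped in every pair. The log2 difference was 0.01 (SE 0.09) at day 7 and 0.06 (SE 0.09) at day 14.

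Of the 8 measured genes, 6 passed the filter, Gzma only through the day 7 arrays. In the linear model over all 12652 genes (limma with Benjamini-Hochberg adjustment, called at an adjusted p below 0.05), Cd28 and Bcl11b were called higher at day 7, where 3.34% of all genes were called and 2.21% called higher. At day 14 against control Gzmb, Cd28 and Bcl11b were called higher, with 18.3% of all genes, and Nkg7 lower, with 34.1%, or 52.4% either way. The same 4 were called at day 14 against day 7, with 17.4% called higher and 33.6% lower, 51% in all. Groups that do not overlap were common as well: over control, 15.2% of all genes lay higher and 11.3% lower in this way at day 7, and 20.8% and 37.3% at day 14, and over day 7, 21.7% lay higher and 38.6% lower at day 14. These calls used the contrasts the genes were chosen on, so nothing is read from their number. Since both leukemic groups were set against the same 3 control arrays, their differences from control share that error.

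**Figure D2:**
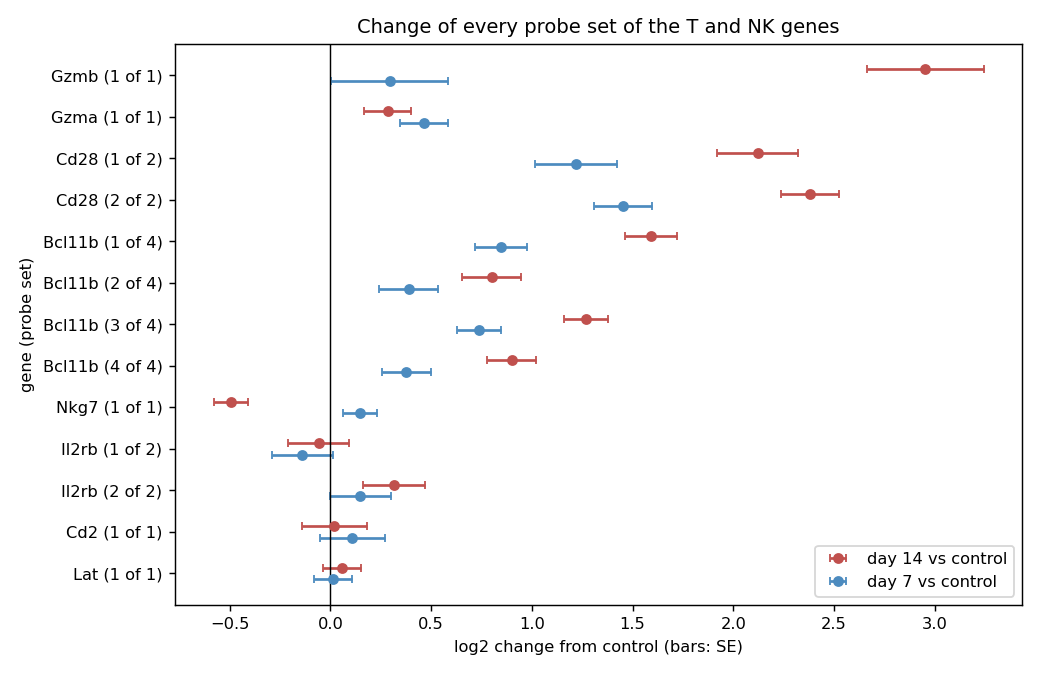
Log2 change from control with its SE for each of the 13 probe sets of the 8 genes, at day 14 (red) and day 7 (blue). Both Cd28 and all 4 Bcl11b probe sets lie right of 0 at both days, Gzmb lies at 2.95 at day 14 and 0.29 at day 7, and Nkg7 lies left of 0 at day 14 alone.

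The patterns of Gzmb, Cd28 and Bcl11b over the 9 arrays were matched with every tested gene by Pearson correlation of log2 intensity, as a description, since the arrays fall in 3 groups and share their scaling. Nearest to Gzmb were Irf2bpl, Dyrk3 and Defa31 (r = 0.99 for each). Defa31 belongs to a defensin family of near-identical copies and is uncertain. Dyrk3, a kinase gene, measured 202, 144 and 156 in control, 170, 145 and 190 at day 7, and 417, 407 and 405 at day 14. Nearest to Cd28 were Rel (r = 0.99), an NF-kB subunit gene, Mtf1 (r = 0.99), which encodes a metal-responsive transcription factor, and Coq10b (r = 0.98). Rel measured 119, 85.5 and 104 in control, 217, 177 and 211 at day 7, and 409, 383 and 320 at day 14, a step at each stage as in Cd28. Nearest to Bcl11b were Trbv1 (r = 0.99), Trgv1 (r = 0.98) and Rogdi (r = 0.98). Trbv1 and Trgv1 are annotated as variable segments of the T cell receptor beta and gamma loci, and their probes may bind related segments. Trgv1 measured 19.4, 23.5 and 28.9 in control, 36.0, 43.3 and 44.6 at day 7, and 71.9, 90.1 and 87.5 at day 14.

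Beyond the 10 genes, 6 lists of other T and NK genes held 114 genes, with 106 of them named on the array and 78 past the filter. At day 7, 2 of the 78 rose, 1 fell and 75 did not pass, where 2.21% of all genes rose and 1.13% fell. The list median was -0.01 on the log2 scale, against 0.01 over all genes. At day 14, 30 rose (38.5%), 19 fell (24.4%) and 29 did not pass, where 18.3% of all genes rose and 34.1% fell. The list median was then 0.12, against -0.06 over all genes. Trat1, Themis and Lef1 passed the filter only through the day 14 arrays, where they are high, so their calls carry no weight. Without such genes 27 of 75 rose at day 14 (36%) and 19 fell, where 18.1% of 12548 genes rose and 34.2% fell, and the list median was 0.08. With every array set to the same 75th percentile, the median of all genes at day 14 moved up by 0.12 and the split became 39 rising and 15 falling in the lists, and 3953 rising and 2929 falling over all genes. The 28 genes left out as dim include Ifng, Tbx21, Eomes, Fasl and Gzmk, so the counts are of genes with signal. The lists were chosen with earlier results of these data known. Their shares, here and for each list below, are therefore set beside those of all genes as a description, and no excess is read from them.

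The NK cell list had 18 genes named on the array, and 9 of them were too dim to be tested, among them Ncr1, Eomes, Tbx21 and Ifng. Of the 9 tested genes, 8 rose at day 14 and Cd160 did not pass (0.02, adjusted p 0.89). That is 88.9% of the tested genes of a list chosen with earlier results known, where 18.3% of all genes rose and 34.1% fell. Klrd1, which encodes the Cd94 chain of NK receptors, measured 44.4, 25.98 and 62.6 in control, 31.2, 41.9 and 51.1 at day 7, and 132, 107 and 120 at day 14. The day 14 arrays were all above the others, a 2.86-fold rise over control (log2 1.52, SE 0.28, limma adjusted p 0.0012). Klrk1, the gene of the activating receptor NKG2D, rose 2.06-fold (log2 1.04, SE 0.18, adjusted p 0.0010). Id2, a brake on E proteins that NK and other innate lymphoid cells need, rose 1.95-fold (adjusted p 0.00041). Zeb2, Tyrobp, Ccl5, Fcer1g and Nfil3 made up the 8, with log2 changes of 0.92, 0.65, 0.59, 0.50 and 0.30. The other 4 Zeb2 probe sets had 1.35, 0.90, 0.16 and -0.43. Tyrobp, Fcer1g and Zeb2 are also genes of myeloid cells. The list median was 0.65. At day 7 none of the 9 tested genes passed with limma. An unadjusted p below 0.05 was reached by 1 of them, and by 2511 of all 12652 genes. The smallest p with limma belonged to Nfil3 (0.42, adjusted p 0.077) and Id2 (0.25, adjusted p 0.37). Another Id2 probe set above the filter had 0.62 at day 7 and 0.79 at day 14.

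In the list of cytotoxic granule proteins, 4 of 12 tested genes fell at day 14, Srgn rose and 7 did not pass. That is 33.3% lower, a share near the 34.1% of all genes that fell. Ctsw, a cysteine protease gene of NK and cytotoxic T cells, measured 160, 166 and 160 in control, 155, 183 and 173 at day 7, and 105, 96.4 and 111 at day 14, a log2 change of -0.64 (SE 0.08, adjusted p 0.00013). Ctsc, whose product activates granzymes by trimming them, fell by 0.67 (SE 0.09, adjusted p 0.00028), although another of its probe sets had 0.28. Serpinb9, an inhibitor of granzyme B, fell by 0.42 (SE 0.08, adjusted p 0.0012). Rab27a was the other that fell (-0.33), with -0.24 and 0.03 for its other probe sets above the filter. Srgn, the proteoglycan that packs granules in many blood cells, rose by 0.15 (SE 0.05, adjusted p 0.039), and lost that call in 8 of the 9 fits with 1 array left out, where its change lay between 0.13 and 0.17: all but the one without control replicate 2. At day 7 none of the 12 passed with limma. An unadjusted p below 0.05 was reached by 2 of them, and by 2511 of all 12652 genes. The smallest p with limma belonged to Rab27a (-0.20, adjusted p 0.16) and Unc13d (-0.18, adjusted p 0.20). Those other Rab27a probe sets went the opposite way at day 7, with 0.31 and 0.57.

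**Figure D3:**
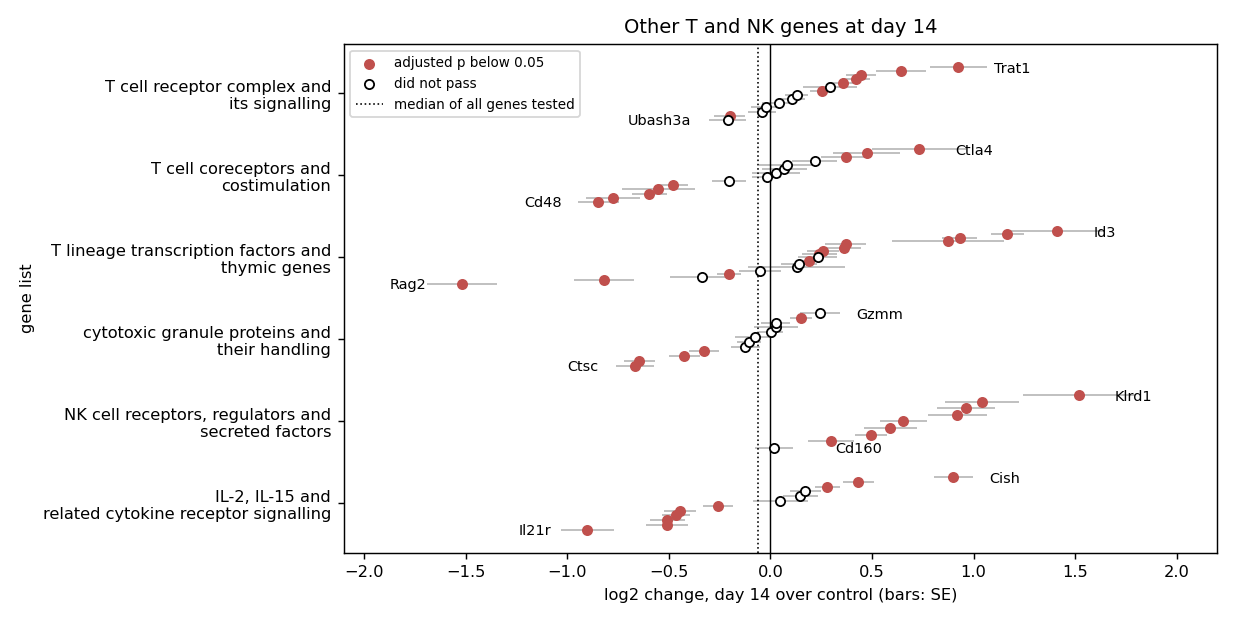
Log2 change at day 14 over control with its SE for the 78 tested genes of the 6 lists. Filled points passed an adjusted p of 0.05, open points did not, and the dotted line is the median of all genes tested (-0.06). Trat1, Themis and Lef1 are among the filled points but passed the filter only through day 14 arrays. The NK cell list lies right of 0, with Cd160 nearest to it, while the list of cytokine receptor genes has filled points on both sides.

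T lineage transcription factors and thymic genes included the 2 list genes that rose at day 7. Tox2, an HMG-box factor gene, measured 29.0, 34.03 and 34.2 in control, 46.1, 50.3 and 50.3 at day 7, and 69.9, 70.4 and 77.5 at day 14. No groups overlapped. Tox2 rose by 0.59 (SE 0.08, adjusted p 0.0073) at day 7 and by 1.17 (SE 0.08, adjusted p 7.8e-06) at day 14. It was called at both days in all 9 fits with 1 array left out, but its day 7 call was lost without the filter on dim probe sets. Its other probe set, too dim to pass that filter, had -0.16 at day 7 and 0.004 at day 14. Id3, an inhibitor of E proteins, rose by 1.02 (SE 0.23, adjusted p 0.045) at day 7 and 1.41 (SE 0.23, adjusted p 0.00070) at day 14. The day 7 call of Id3 held only without control replicate 1, at 1.31, and was lost in the other 8 such fits, where the lowest change was 0.85.

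At day 14, 9 of the 17 tested thymic and T lineage genes rose, 3 fell and 5 did not pass, and without Lef1 it was 8 of 16. That is 52.9% rising, or 50% without Lef1, and 17.6% falling, where 18.3% of all genes rose and 34.1% fell. The count rising became 5, with 2 falling, without day 14 replicate 1, and 5, with 3 falling, without day 14 replicate 3. Lef1, a partner factor of Tcf7, measured 10.3, 11.6 and 10.9 in control, 12.0, 12.9 and 11.4 at day 7, and 22.0, 22.1 and 18.5 at day 14. Its control values lay below the 40th percentile, as did those of day 7, so it entered the test through day 14 alone and no test is given. Its day 14 level was at least 1.45-fold that of control. Rag2, a subunit of the recombinase that cuts antigen receptor genes, measured 25.4, 23.8 and 35.5 in control, 23.8, 27.8 and 36.5 at day 7, and 9.38, 9.04 and 10.8 at day 14. It was below that percentile in every day 14 array, a fall of at least 1.85-fold (adjusted p 8.9e-05). Dntt, terminal transferase of early lymphoid progenitors, fell by 0.82 (SE 0.15, adjusted p 0.0012) on the log2 scale. Bcl11a, the paralog of Bcl11b, fell by 0.20 (SE 0.06, adjusted p 0.016); the call was lost without day 14 replicate 1, at -0.17, and 2 of its 7 probe sets had changes of -0.01 and 1 had 0.07.

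**Figure D4:**
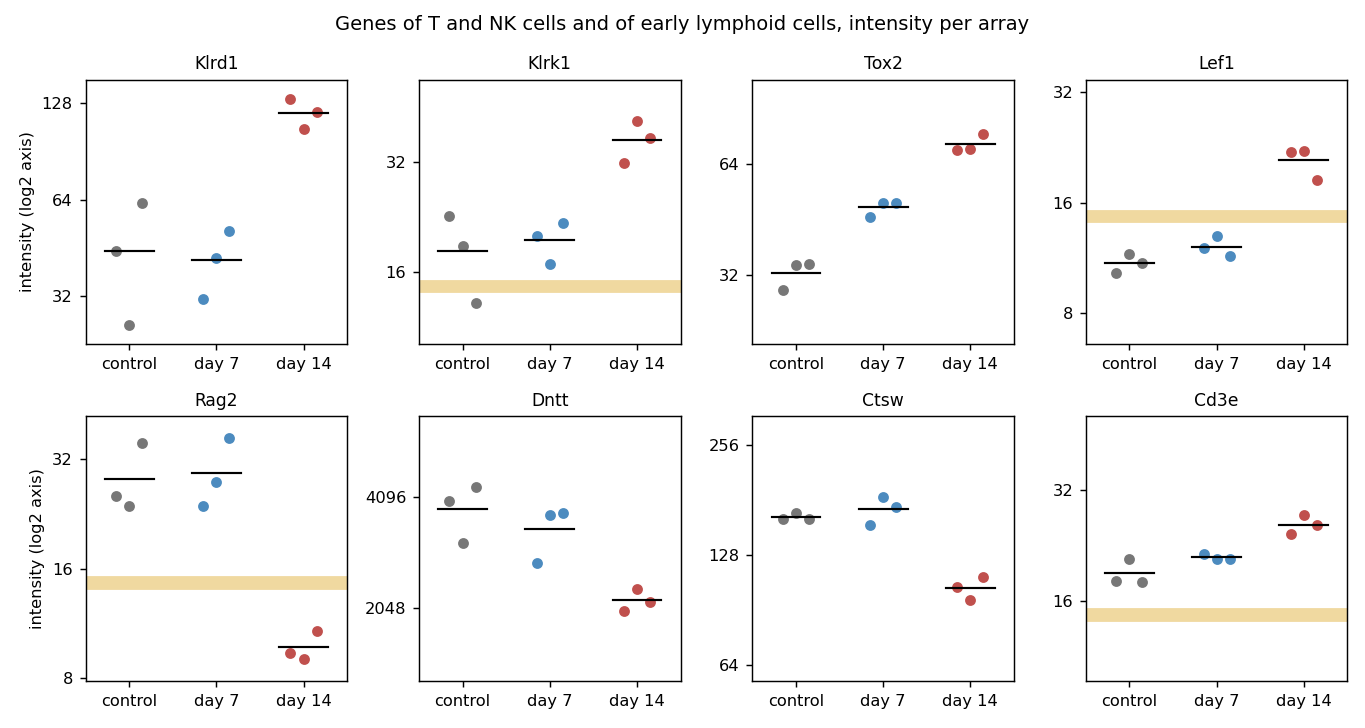
Intensity per array (log2 axis) of 8 genes of the lists, by group. Points are arrays, lines group means and the tinted band the 40th percentile of the arrays. Klrd1, Klrk1, Lef1 and Tox2 are highest at day 14, Rag2, Dntt and Ctsw are lowest there, and Cd3e stays close above the band.

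Of 14 tested genes of the T cell receptor complex and its signalling, 6 rose at day 14, Prkcq fell and 7 did not pass, and without Trat1 and Themis 4 of 12 rose. That is 42.9% rising, or 33.3% without Trat1 and Themis, where 18.3% of all genes rose and 34.1% fell. Cd3e, a signalling chain of the receptor, measured 18.1, 20.8 and 18.0 in control, 21.4, 20.7 and 20.8 at day 7, and 24.3, 27.4 and 25.8 at day 14, a rise of 0.45 (SE 0.07, adjusted p 0.00077) at low intensity. Trat1, a T cell receptor adaptor gene, was at least 1.49-fold and Themis, needed for thymocyte selection, at least 1.31-fold as high at day 14 as in control, where both lay under the 40th percentile. Both passed the filter only through the day 14 arrays, so no test is given. Zap70, the kinase that docks on the activated receptor and acts upstream of Lat, Lcp2 and Fyb made up the 6, with changes of 0.42, 0.36 and 0.26, while another Zap70 probe set had 0.07. Prkcq, a kinase downstream of Cd28, fell by 0.20 (SE 0.08, adjusted p 0.049) and kept that call in 1 of 9 fits with an array left out, the one without day 14 replicate 1, with changes of -0.26 to -0.12. At day 7 none of the 14 passed with limma. An unadjusted p below 0.05 was reached by 2 of them, and by 2511 of all 12652 genes. The smallest p with limma belonged to Ptprc (-0.18, adjusted p 0.12) and Plcg1 (-0.21, adjusted p 0.18).

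Among 14 tested coreceptors and costimulatory genes, 3 rose at day 14, 5 fell and 6 did not pass. These shares, 21.4% and 35.7%, are near the 18.3% and 34.1% of all genes. The count was 0 rising and 4 falling without control replicate 2, 1 and 4 without day 14 replicate 1, and 1 and 5 without day 14 replicate 3. The ligands and relatives of Cd28 were of both kinds. Cd86, a ligand of Cd28, measured 75.2, 78.3 and 85.9 in control, 56.8, 63.3 and 64.1 at day 7, and 52.9, 47.8 and 58.0 at day 14. It fell by 0.38 (SE 0.09, adjusted p 0.046) at day 7 and by 0.60 (SE 0.09, adjusted p 0.00037) at day 14. The day 7 call was kept only when replicate 2 or 3 of day 14 was left out, and over the 9 fits the change lay between -0.42 and -0.32. Ctla4, which competes with Cd28 for those ligands and is its neighbour on chromosome 1, rose by 0.73 (SE 0.23, adjusted p 0.023) at day 14. Icos, the next gene there and a relative of Cd28, had 0.03 (adjusted p 0.86). The Ctla4 call was lost without control replicate 2 or day 14 replicate 1, with changes of 0.59 to 0.85 over the 9 fits.

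Cd48, the mouse ligand of Cd2, fell by 0.85 (SE 0.10, adjusted p 9.8e-05) at day 14, and Tnfrsf18, a costimulatory receptor of T cells, by 0.78 (SE 0.13, adjusted p 0.00084). Cd7 and Cd8a rose by 0.47 (adjusted p 0.033) and 0.37 (adjusted p 0.027). The Cd7 call was lost when control replicate 2, or replicate 1 or 3 of day 14, was left out, with changes of 0.35 to 0.54 over the 9 fits. The Cd8a call was lost when replicate 2 or 3 of the controls, or replicate 3 of day 14, was left out, with changes of 0.23 to 0.47.

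The list of IL-2, IL-15 and related cytokine receptor signalling genes, to which the partners of Il2rb belong, held changes in both directions at day 14. Of 12 tested genes 3 rose (25%), 6 fell (50%) and 3 did not pass, where 18.3% of all genes rose and 34.1% fell. Cish, a feedback inhibitor switched on by STAT5, measured 199.8, 211 and 245 in control, 170.2, 196 and 207 at day 7, and 435, 401 and 385 at day 14, a rise of 0.90 (SE 0.10, adjusted p 6.6e-05). Stat5b rose by 0.43 (SE 0.08, adjusted p 0.0010) and the kinase gene Jak1 by 0.28 (SE 0.06, adjusted p 0.0034), although another Jak1 probe set had -0.01. Il21r fell by 0.90 (SE 0.13, adjusted p 0.00032), Il18rap by 0.51 (SE 0.10, adjusted p 0.0021) and Il12rb1 by 0.51 (SE 0.09, adjusted p 0.00084). These 3 encode receptor chains for IL-21, IL-18 and IL-12, and Stat4, Il15ra and Jak3 were the others that fell. At day 7 none of the 12 passed with limma. An unadjusted p below 0.05 was reached by 4 of them, and by 2511 of all 12652 genes. The smallest p with limma belonged to Il12rb1 (-0.26, adjusted p 0.13) and Stat4 (-0.22, adjusted p 0.15).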

How the data were processed

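The values are the authors' deposited linear intensities from 9 arrays. RNA went through 2 amplification cycles and signals were normalized, per the series' design text, with Affymetrix Microarray Analysis Software 5.0; 51.64% of the 45037 probe sets repeat a value across arrays, so how they were normalized is not certain and the scaling was varied. Amplification over 2 cycles favours transcript ends, so probe sets of a gene can differ. The number of arrays limits the precision.

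The platform annotation gave 34945 probe sets 1 symbol, 932 several and 9160 none. A gene was represented by its brightest probe set by mean log2 intensity. The table's 20th percentile (5.81) served as a floor, log2 was taken, and genes above the 40th percentile of their array in at least 3 arrays were tested: 12652. Group differences were fitted with limma 3.58.1 (R 4.3.3) in 1 model over 9 arrays. The fit was also run on simulated arrays with independent noise, few changed genes and no shift in scaling. That run cannot vouch for the day 14 calls, where many genes differed and the split by direction depended on scaling. Values of genes that failed the filter, and of second probe sets, come from a fit of every probe set without filter. Where a group lay wholly under the 40th percentile, "at least" gives the brighter group's mean over the higher of that percentile and each dim value.

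The members and lists were chosen with earlier results of these data known. Named were the 10 members and, per list and comparison, up to 3 called genes in each direction by size (with none called, the 2 with the smallest p); other genes were singled out after their values were seen, as were the genes beside Gzmb. Counts without genes that passed the filter through 1 group alone were added after seeing the data.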

Additional observations from a re-analysis of the deposited data

Results flagged for a closer look

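A change from control that differs between the days shows as a difference of day 14 from day 7. The list genes named in that comparison are given here by that log2 difference, day 14 minus day 7, all past an adjusted p of 0.05 in limma, where 17.4% of all genes passed higher and 33.6% lower; both changes share the control arrays. Of the NK cell list, Klrd1 differed by 1.56, Zeb2 by 0.96 and Klrk1 by 0.91. Of the T cell receptor list, Zap70 differed by 0.43. The fitted values of Trat1 and Themis were 0.68 and 0.51. Of the coreceptors, Cd7 differed by 0.59 and Cd4 by 0.30, and Thy1 by -1.30, Cd48 by -0.94 and Tnfrsf18 by -0.75. Thy1, a surface protein of T cells and some stem cells, was at 0.75 (adjusted p 0.051) at day 7 and -0.55 (adjusted p 0.025) at day 14 relative to control. Of the thymic and T lineage genes, Satb1 differed by 0.61 and Tox2 by 0.57, and Dntt by -0.64. The fitted values of Lef1 and Rag2 were 0.78 and -1.58. Where a group lay wholly under the 40th percentile only a bound holds: at day 14 Trat1 was at least 1.498-fold and Lef1 at least 1.46-fold higher than at day 7, and Rag2 at least 1.93-fold lower. Trat1, Themis and Lef1 passed the filter only through the day 14 arrays, so their tests carry no weight. Of the granule genes, Srgn differed by 0.17, and Ctsw by -0.71, Ctsc by -0.59 and Serpinb9 by -0.28. Of the cytokine receptor list, Cish differed by 1.09, Stat5b by 0.41 and Jak1 by 0.35, and Il21r by -0.88, Il15ra by -0.38 and Il18rap by -0.27. Other probe sets above the filter had 0.31 and 0.05 for Ctsc, 0.05 and 0.15 for Zap70, 0.05 for Stat5b and 0.08 for Cd4. Those of Jak1 had 0.38 and 0.01, and those of Zeb2 1.25, 0.83, 0.42 and 0.31. For Satb1 they had 0.39, 0.33 and 0.27, and for Dntt -0.62 and -1.13. Those of Serpinb9, Il15ra and Il18rap had -0.78, -0.50 and -0.34.

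With 1 array left out, Cd4 kept its call in 3 of 9 fits (0.18 to 0.37), losing it without control replicate 1 or 2, day 7 replicate 1 or 3, or day 14 replicate 1 or 2. Srgn kept its call in 4 (0.15 to 0.18), losing it without any day 7 replicate or day 14 replicate 1 or 2. Il18rap kept its call in 2 (-0.31 to -0.22), those without control replicate 2 or 3.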

How the results depend on the processing

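At day 7 the counts depended on the processing. The 423 genes called became 703 with an offset of 32 in place of the floor, 59 without the filter on dim probe sets and 674 with a trended robust variance prior, and 79 to 553 with 1 array left out: leaving out control replicate 3 gave 79 and control replicate 1 gave 189, replicates 1, 2 and 3 of day 7 gave 146, 84 and 123, and replicate 2 of day 14 gave 281. The 3 other T and NK genes called at day 7 became 6, 0 and 6 under the same 3 settings (the 0 from limma, with 20 of 106 at an unadjusted p below 0.05), and 1 to 3 with 1 array left out, 1 without control replicate 3 or any day 7 replicate. With the filter in place, 2511 of all 12652 genes had an unadjusted limma p below 0.05 at day 7. With the replicate number as a block, 280 genes were called at day 7. The labels do not say whether same-numbered arrays are paired. The correlation of their deviations ran from -0.19 to 0.12, and not every array correlated best with its own number. With 3 arrays per group these values cannot decide whether they are paired.

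The counts of calls at day 14 over all genes, and over all 6 lists, stayed within 1.5 times in every alternative. Single lists moved further. Against control, the 8 coreceptor genes called became 4 without control replicate 2 and 5 without day 14 replicate 1, without the filter or with a filter at the 60th percentile. The 12 T lineage genes became 7 without day 14 replicate 1 or at the 60th percentile, and the 7 T cell receptor genes became 4 there. Against day 7, the 8 cytokine receptor genes became 5 when replicate 1 or 2 of day 7 or replicate 3 of day 14 was left out, the 4 granule genes became 7 with every probe set on its own, and the 8 T cell receptor and 7 T lineage genes became 5 and 4 at the 60th percentile. With every array set to the same 75th percentile the lists had 38 higher and 9 lower against day 7 in place of 26 and 14, and all genes 4029 and 2942 in place of 2204 and 4251. With quantile normalization the split over all genes at day 14 against control was 2788 higher and 3390 lower.

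Over 19 alternatives, the day 14 log2 difference from control was 2.34 to 3.36 for Gzmb, 1.61 to 2.51 for Cd28 and 0.85 to 1.74 for Bcl11b, the lowest values coming with the offset, which shrinks changes of dim genes. Nkg7 lay between -0.57 and -0.37. At day 7 Gzmb lay between 0.07, without control replicate 2, and 0.70, without control replicate 1. Bcl11b lay between 0.40 and 0.997 at day 7. Low signal limits Gzma, Il2rb and Cd2.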

Other observations

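Rag1 and Rag2, which encode the 2 subunits of the V(D)J recombinase, were on opposite sides of control at day 14. Rag1, which was picked with its values in view, had intensities of 22.6, 13.6 and 22.9 in control, 24.1, 42.0 and 44.4 at day 7, and 33.6, 46.4 and 27.6 at day 14, and rose by 0.87 on the log2 scale (SE 0.28, limma adjusted p 0.023), while Rag2 fell. The IL-7 receptor gene Il7r, which early lymphoid cells need, had 0.13 (adjusted p 0.67). Il2ra, the inducible chain of the IL-2 receptor, measured 10.3, 9.71 and 9.84 in control, 10.6, 10.6 and 10.2 at day 7, and 13.9, 13.1 and 12.0 at day 14, highest in the 3 day 14 arrays but too dim to be tested.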
